A study of Homo sapiens with 6 samples.

Results

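Mitotic G2/M genes are the genes whose transcripts accumulate as a cell prepares for and passes through division, and 41 of them were followed in HepG2 cells after silencing of DGUOK, which encodes the mitochondrial deoxyguanosine kinase. They were chosen by gene symbol for their known part in mitosis, with earlier results of these data known. Shares of the list set beside those of all genes are therefore descriptions and no test. All 41 were present among the 34036 genes of the count table, of which 24670 had a count in any library. RNA of HepG2, a human line derived from a hepatocellular carcinoma, was sequenced in bulk from 3 siCON and 3 siDGk cultures, which the series describes as independent biological replicates. The siDGk cells received a pool of siRNAs against DGUOK and the siCON cells a non-targeting siRNA, both with Lipofectamine RNAiMAX in EMEM medium with serum, and both were harvested after 48 h. These groups were read from the sample titles, because the entry for treatment reads siControl in all 6 samples. Total counts were 19065684, 18915508 and 10527216 in siCON replicates 1, 2 and 3, and 18613138, 15978314 and 21334876 in siDGk replicates 1, 2 and 3.

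Entry into mitosis is driven by CDK1 bound to cyclins A and B, which PLK1 and the Aurora kinases assist. Chromosomes then attach to the spindle through kinetochores, the spindle assembly checkpoint holds the anaphase-promoting complex back until every kinetochore is attached, and the central spindle guides the final cleavage. Many of these genes are silent in resting cells and are switched on together late in the cell cycle, when FOXM1, B-MYB and NF-Y act at promoters that carry a CHR element and CCAAT boxes, the CHR being also where the DREAM complex holds the genes down. HepG2 is a dividing tumour line, unlike the mostly resting hepatocytes of an adult liver.

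Promoters from RefSeq (GRCh38.p14) were matched by symbol for 34 of the 41 members, each a window from 250 bases before to 50 bases after the transcription start, and AURKA, FOXM1, BIRC5, BUB3, TTK, UBE2C and TPX2 were not matched. The CHR was searched as TTTGAA or TTCGAA and the CCAAT box as CCAAT, on both strands, and in 2 members, CDCA8 and MKI67, a CHR match and a CCAAT match shared 1 base. A CHR match lay in 25 of the 34 windows (73.5%), against 16.6% of all 27305 promoters and 11.2% of the promoters of the genes tested below. A CCAAT match lay in 26 (76.5%), against 35.7% of all promoters, and both motifs lay in 21 (61.8%), against 6.58% of all promoters. Other mitotic genes held a CHR match in 53.2% of their windows and DNA replication and G1/S genes in 9.09%, although 54.5% of the latter windows held a CCAAT match. The promoters of 5 members that differed between the groups are printed beside that of CDK1, which did not pass the test. Capitals mark CHR and CCAAT matches, in either orientation. The windows are chr17:40417847-40418146 for TOP2A, chr2:110678014-110678313 for BUB1 and chr15:90994486-90994785 for PRC1, all on the minus strand, and chr16:23678639-23678938 for PLK1, chr9:89310945-89311244 for CKS2 and chr10:60778081-60778380 for CDK1, all on the plus strand.
TOP2A: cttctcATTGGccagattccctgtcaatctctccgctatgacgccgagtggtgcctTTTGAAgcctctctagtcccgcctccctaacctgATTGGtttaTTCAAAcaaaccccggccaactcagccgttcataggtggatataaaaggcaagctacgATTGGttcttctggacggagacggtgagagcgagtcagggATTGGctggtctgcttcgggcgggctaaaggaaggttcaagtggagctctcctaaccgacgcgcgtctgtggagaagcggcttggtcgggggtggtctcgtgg
PLK1: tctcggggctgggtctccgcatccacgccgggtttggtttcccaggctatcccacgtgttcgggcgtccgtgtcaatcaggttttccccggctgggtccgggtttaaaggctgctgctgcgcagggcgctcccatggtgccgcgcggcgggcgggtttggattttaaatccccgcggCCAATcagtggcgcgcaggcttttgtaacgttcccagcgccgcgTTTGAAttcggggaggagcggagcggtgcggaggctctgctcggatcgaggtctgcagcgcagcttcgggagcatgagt
BUB1: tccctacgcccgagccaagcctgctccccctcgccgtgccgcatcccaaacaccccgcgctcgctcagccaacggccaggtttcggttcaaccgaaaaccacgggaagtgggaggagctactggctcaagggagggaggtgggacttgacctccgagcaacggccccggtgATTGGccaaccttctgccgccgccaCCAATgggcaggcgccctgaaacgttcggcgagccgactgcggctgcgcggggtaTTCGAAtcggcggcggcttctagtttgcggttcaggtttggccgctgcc
PRC1: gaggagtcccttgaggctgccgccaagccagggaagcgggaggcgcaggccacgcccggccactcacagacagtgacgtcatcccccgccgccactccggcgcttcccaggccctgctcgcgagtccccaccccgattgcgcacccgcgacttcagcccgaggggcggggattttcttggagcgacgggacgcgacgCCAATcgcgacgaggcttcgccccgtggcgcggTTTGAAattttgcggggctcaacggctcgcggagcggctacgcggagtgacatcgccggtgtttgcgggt
CKS2: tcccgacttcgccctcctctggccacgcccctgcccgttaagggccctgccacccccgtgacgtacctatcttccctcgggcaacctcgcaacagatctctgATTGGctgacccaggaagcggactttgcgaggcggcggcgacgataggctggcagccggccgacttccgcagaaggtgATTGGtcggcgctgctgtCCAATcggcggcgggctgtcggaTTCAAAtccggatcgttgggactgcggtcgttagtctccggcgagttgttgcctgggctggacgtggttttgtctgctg
CDK1: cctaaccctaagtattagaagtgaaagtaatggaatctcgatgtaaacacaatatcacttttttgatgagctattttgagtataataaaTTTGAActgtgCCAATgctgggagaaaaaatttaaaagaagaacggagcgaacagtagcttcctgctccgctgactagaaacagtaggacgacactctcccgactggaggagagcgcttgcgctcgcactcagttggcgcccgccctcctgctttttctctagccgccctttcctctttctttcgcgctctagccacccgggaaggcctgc
In PLK1 and CKS2 the first base of the CHR match is at position -29 from the start, in PRC1 it is at -20, and in BUB1 at 2, each with a CCAAT match upstream. TOP2A held 2 CHR matches, at -194 and -151, among 4 CCAAT matches, and CDK1 held 1 of each. Both motifs were thus present in PLK1, TOP2A, BUB1 and PRC1, which were lower in siDGk cells, in CKS2, which was higher, and in CDK1. Among the 30 members with a promoter that were not called lower, CKS2 among them, 17 (56.7%) held both. Members not called lower were thus found with and without the pair of motifs. A match is a description of these letters only and was not tested for binding.

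**Figure D1:**
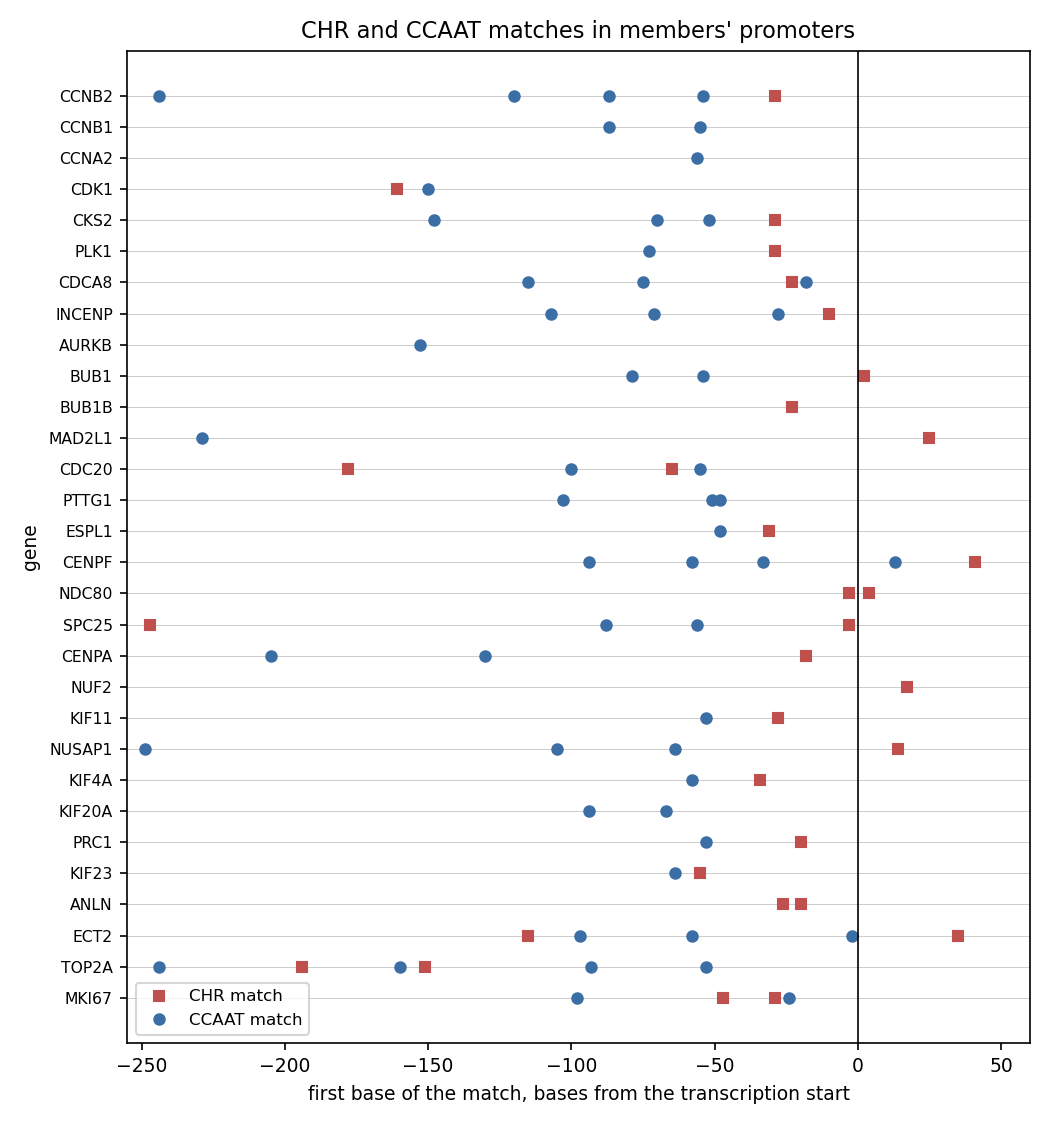
Positions of CHR matches (squares) and CCAAT matches (circles) in the promoters of the 30 members with a match, in bases from the transcription start (vertical line), genes ordered by role. CHR matches had a median position of -27 and CCAAT matches one of -72.

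The target of the siRNA pool was measured first, as a check of the groups. DGUOK stood at 54.4, 53.1 and 48.2 CPM in siCON and at 9.08, 10.5 and 6.72 CPM in siDGk replicates 1, 2 and 3, CPM being counts relative to a library size scaled by TMM. The groups did not overlap, and DGUOK fell 5.95-fold (log2 fold change -2.57, SE 0.19, adjusted p = 1.64e-08 in edgeR's quasi-likelihood test).

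Some transcripts that mark other cell types were called different between the groups, and several were highest in siDGk replicate 2. Of 6 endothelial and stromal markers tested, 1 was called higher and 1 lower. Of 6 T and B cell markers tested, 1 was called higher (16.7%, against 7.42% of all genes tested), and of 3 myeloid markers tested, 0 were called. Of 8 endothelial and stromal markers, 8 were in the table, and their summed level was 13.8, 16.4 and 12.6 CPM in siCON against 38.7, 97.7 and 25.2 CPM in siDGk replicates 1, 2 and 3. VWF led that list in siDGk replicate 2 at 31.4 CPM and was at 0 in siCON replicate 3 and siDGk replicate 3, whereas COL1A1 led it in the other siDGk libraries and PDGFRB in siCON. The number of these markers at 0 was 3, 5 and 4 in the siCON libraries and 0, 0 and 4 in the siDGk libraries, KDR and DCN being at 0 in every siCON library. COL1A1, at 0.481, 1.97 and 1.05 CPM in siCON and at similar levels in all siDGk libraries (20.2, 20.7 and 17.4 CPM), was called higher, and PDGFRB, lower in every siDGk library (6.21, 6.52 and 3.73 CPM) than in any siCON library (10.9, 13.0 and 9.25 CPM), was called lower. T and B cell markers, 7 of 8 of which were in the table, summed to 4.06, 13.3 and 7.34 CPM in siCON and 20.1, 41.6 and 22.8 CPM in siDGk replicates 1, 2 and 3. CD3D led them in siCON and in siDGk replicate 1 and CD79A in siDGk replicates 2 and 3, and 3, 1 and 1 of them were at 0 in siCON and 0, 0 and 2 in siDGk, and CD79A, at 0 in siCON replicates 1 and 2, was called higher. Of the 6 myeloid markers, LYZ lay between 1610 and 1896 CPM in all 6 libraries, the others summed to at most 4.58 CPM in any library, and 0, 1 and 2 were at 0 in siCON and 3, 4 and 3 in siDGk. The 12 hepatocyte markers, none at 0 in any library, summed to 63257, 59307 and 56872 CPM in siCON and 35806, 31979 and 30627 CPM in siDGk, led by ALB and by SERPINA1, respectively. Of the 12, 10 were called lower (83.3%, against 6.68% of all genes tested). The part of these transcripts in the results on mitotic genes was not tested. Values below are from all 6 libraries unless siDGk replicate 2 is said to be left out.

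All 41 members passed the filter on low counts, which left 14476 genes in edgeR's quasi-likelihood test. Calls required a Benjamini-Hochberg adjusted p under 0.05, over all genes tested, together with a log2 fold change beyond 0.5 in either direction. Of the members, 5 were called lower in siDGk cells (6.68% of all genes tested were), AURKA, TOP2A, PLK1, BUB1 and PRC1, and 1 was called higher (7.42% of all genes tested were), CKS2. The share called lower was thus 12.2% of the members and the share called higher 2.44%. The number called lower was 3 in DESeq2 and 3 to 5 without 1 library. More widely, 34 of the 41 log2 fold changes were negative (82.9%, against 48.5% of all genes tested), and their median was -0.31, with quartiles of -0.47 and -0.07, against a median of 0.02 over all genes. Among the 9332 genes in the members' range of mean level, 8.06% were called lower, 8.74% were called higher, and the share of negative values was 49.96%. All siDGk libraries lay below all siCON libraries for 11 members (17.3% of all genes tested did so) and above them for 2, CKS2 and BUB3 (18.7% of all genes tested did so). The groups overlapped for the other 28 members, and for 9268 of the 14476 genes tested. At an unadjusted p under 0.05 there were 12 members (29.3%, against 30.6% of all genes tested), 9 of them negative (22%, against 14.7% of all genes tested). For 31 members, against 8272 of the 14476 genes tested, the 95% interval of the log2 fold change lay between -1 and 1. It included 0 for 29 members, against 10051 of the 14476 genes tested, a similar share. Fewer cells in G2 or mitosis and less of these transcripts per cell cannot be told apart in bulk RNA.

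**Figure D2:**
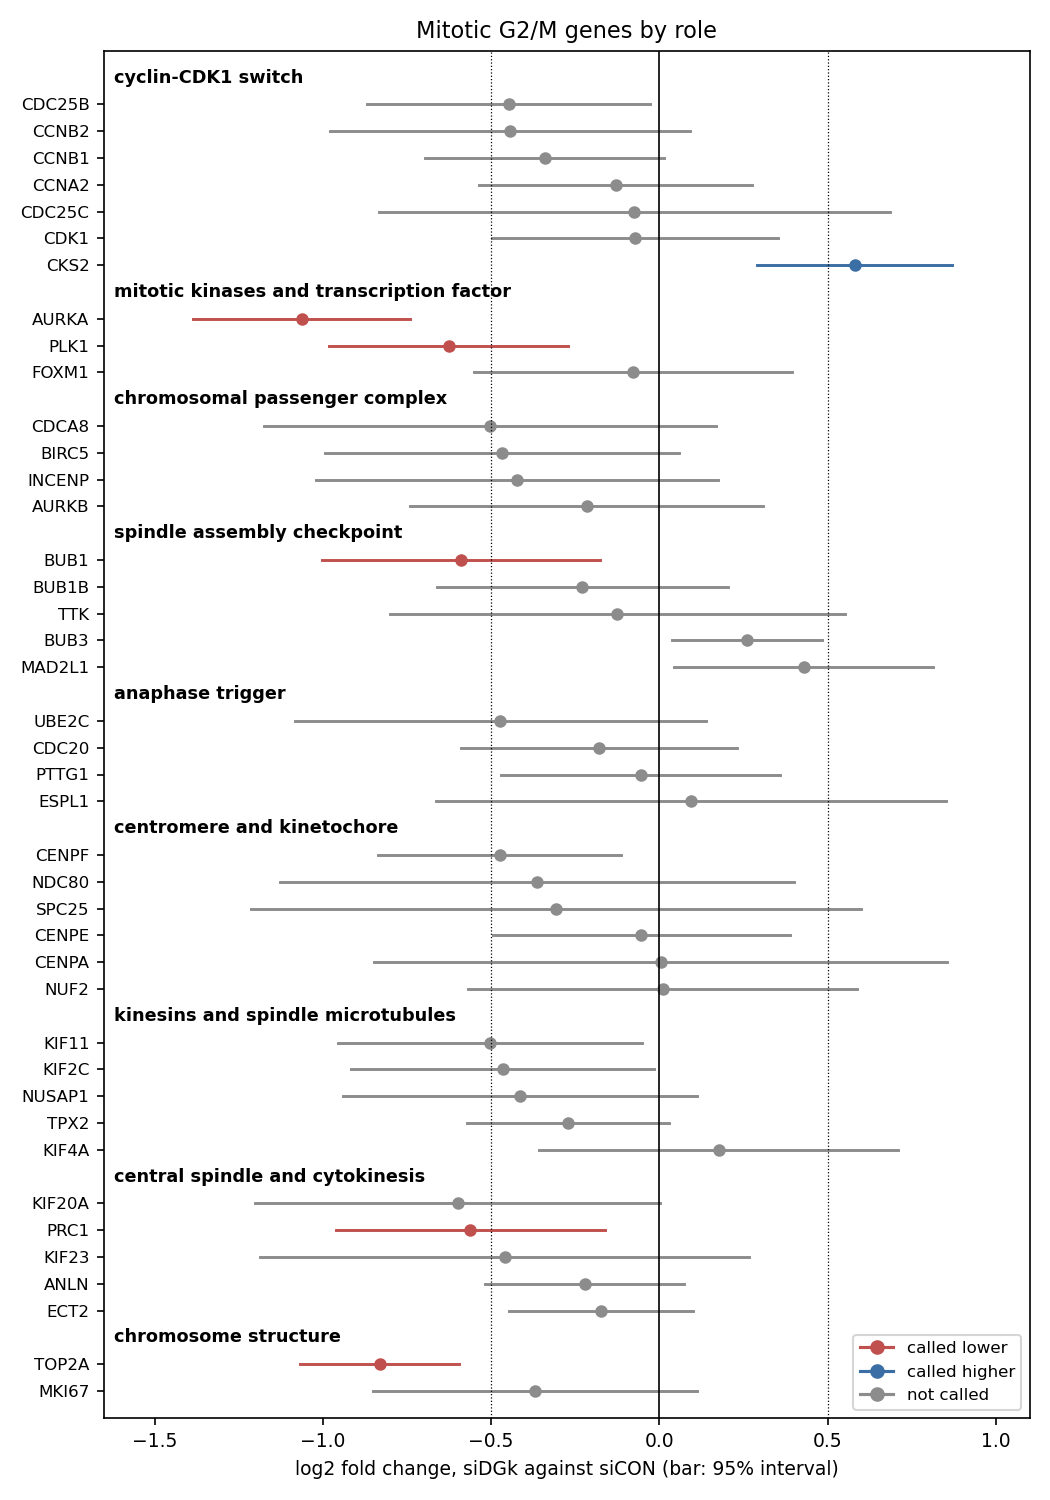
Log2 fold change, siDGk against siCON (x axis), of each of the 41 members, grouped by role, with its 95% interval as a bar and dotted lines at -0.5 and 0.5. AURKA lies farthest to the left at -1.06, CKS2 farthest to the right at 0.58, and 34 of the 41 points lie left of 0.

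Per length of exon sequence, the members spanned a wide range of levels. In siCON cells CKS2 was the most abundant at 199 TPM, a unit that divides counts by transcript length and scales each library to the same total, before TOP2A at 90.3 TPM, TPX2 at 67.4 TPM and AURKA at 55.6 TPM, and ESPL1 was the least abundant at 3.20 TPM. In siDGk cells CKS2 was at 269 TPM, TOP2A at 45.5 TPM, TPX2 at 50.9 TPM and AURKA at 23.8 TPM. The lowest count behind any member was 53, for SPC25 in siCON replicate 3, the library with the fewest counts.

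Summed over the 41 members, the level was 1186, 1118 and 1162 CPM in siCON against 931, 1042 and 874 CPM in siDGk replicates 1, 2 and 3. Every siDGk library lay below every siCON library, with siDGk replicate 2 nearest to siCON. The group means were 1156 ± 34.3 and 949 ± 85.6 CPM (SD, n = 3), a change of -17.9%, or of -21.9% without siDGk replicate 2. That library was the highest of the siDGk group. Leaving out siDGk replicate 3, the lowest at 874 CPM, would make the change smaller instead. TOP2A made up 33.5% of the difference in summed level, AURKA 11.3% and PLK1 7.21%. The sum for the 95 other mitotic genes changed by -7.98%, and that for the 51 DNA replication and G1/S genes by 8.32%, or by -4.04% over the 50 of them other than CCND1.

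Among the kinases, AURKA encodes Aurora A, which matures centrosomes and builds the spindle poles (ENSG00000087586.17, chromosome 20, 56369389 to 56392337 on GRCh38). AURKA stood at 44.3, 47.5 and 42.4 CPM in siCON against 22.4, 20.6 and 21.3 CPM in siDGk replicates 1, 2 and 3. All siDGk libraries were at about the same level, well below all siCON libraries. AURKA fell 2.09-fold (log2 fold change -1.06, SE 0.15, adjusted p = 5.41e-05 in edgeR's quasi-likelihood test). PLK1, the polo-like kinase that promotes mitotic entry and centrosome maturation (ENSG00000166851.14, chromosome 16, 23677656 to 23690367), was at 36.2, 42.6 and 47.6 CPM in siCON and 32.5, 24.9 and 24.3 CPM in siDGk replicates 1, 2 and 3. No overlap was seen, although siCON replicate 1 and siDGk replicate 1 lay close together. The log2 fold change of PLK1 was -0.63 (SE 0.17, adjusted p = 0.0125 in edgeR's quasi-likelihood test), and its call was lost without siCON replicate 3, at an adjusted p of 0.0926 in the same edgeR test (from 0.00367 to 0.0926 over all alternatives). FOXM1, the forkhead factor that activates G2/M genes, was at 17.6, 15.1 and 12.9 CPM in siCON and 13.5, 13.8 and 16.0 CPM in siDGk replicates 1, 2 and 3. These values overlapped, with a log2 fold change of -0.08 and a 95% interval from -0.55 to 0.39.

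The cyclin-CDK1 switch held the member that was called higher. CKS2, a small subunit that binds CDK1 and helps it to act on substrates already phosphorylated (ENSG00000123975.4, chromosome 9, 89311195 to 89316703), was at 34.6, 33.8 and 32.5 CPM in siCON and 47.7, 55.0 and 48.4 CPM in siDGk replicates 1, 2 and 3. Every siDGk library lay above every siCON library. CKS2 rose 1.49-fold (log2 fold change 0.58, SE 0.14, adjusted p = 0.00533 in edgeR's quasi-likelihood test). CDK1 itself was at 32.1, 23.5 and 29.9 CPM in siCON and 26.8, 34.3 and 20.3 CPM in siDGk replicates 1, 2 and 3, overlapping throughout, with a log2 fold change of -0.07 and a 95% interval from -0.50 to 0.35. Of its cyclin partners, CCNA2 had a log2 fold change of -0.13, CCNB1 one of -0.34 and CCNB2 one of -0.44, and without 1 library CCNA2 ran from -0.26 to -0.0057 and CCNB1 from -0.44 to -0.18. CCNB1 was at 32.8, 42.2 and 29.9 CPM in siCON and 28.3, 26.3 and 28.4 CPM in siDGk replicates 1, 2 and 3. For both CCNB1 and CCNB2 all siDGk libraries lay below all siCON libraries, but neither was called, with adjusted p of 0.184 and 0.261 in edgeR's quasi-likelihood test. The phosphatases that activate CDK1 gave log2 fold changes of -0.45 for CDC25B (95% interval from -0.87 to -0.03) and -0.07 for CDC25C (95% interval from -0.83 to 0.68).

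**Figure D3:**
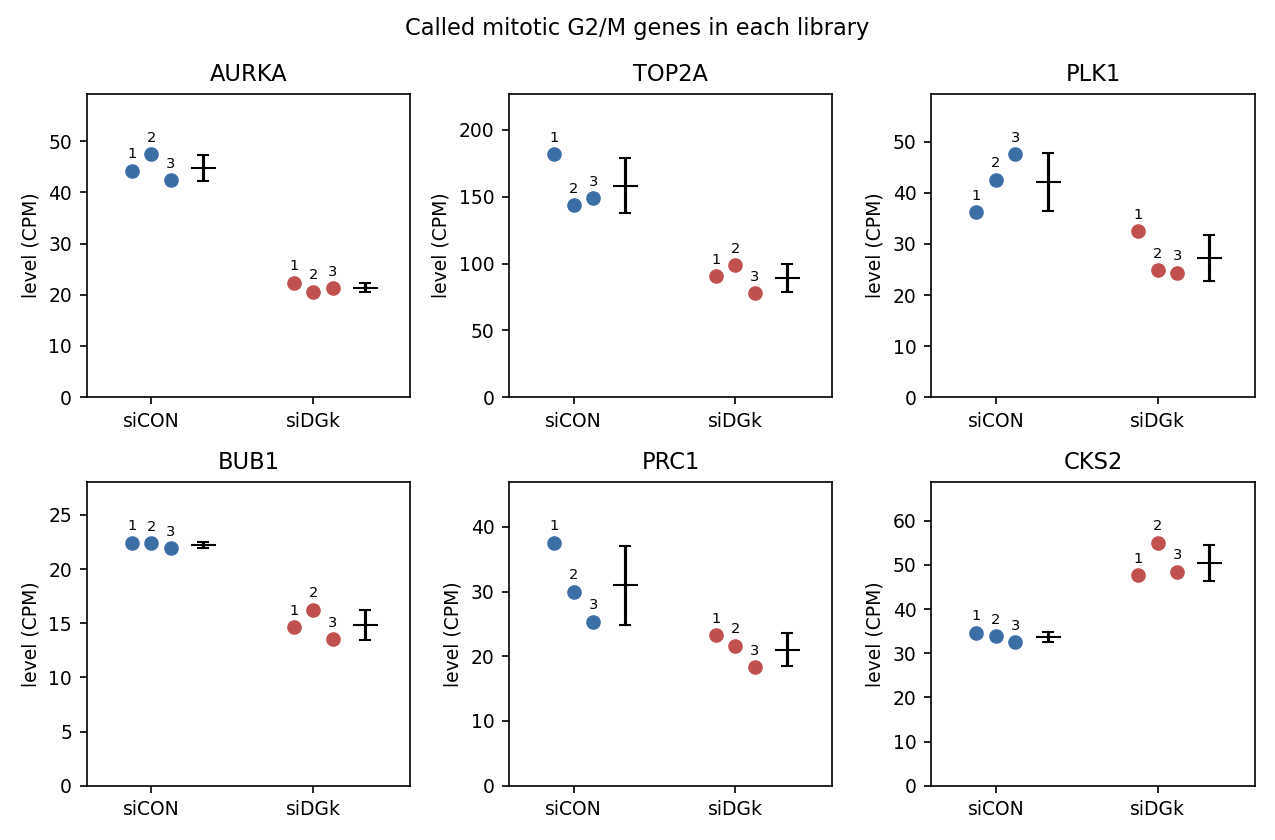
Level in CPM (y axis, from 0) of the 6 called members in each library, siCON in blue and siDGk in red, with replicate numbers above the points and the mean and SD of each group in black. In every panel the groups do not overlap, and the siDGk points lie below the siCON points except for CKS2.

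Chromosome structure was represented by TOP2A and MKI67. TOP2A encodes topoisomerase II alpha, which untangles sister chromatids (ENSG00000131747.14, chromosome 17, 40388525 to 40417896), and was at 182, 144 and 149 CPM in siCON and 90.4, 98.7 and 77.8 CPM in siDGk replicates 1, 2 and 3. All siDGk libraries lay below all siCON libraries, and the groups were far apart relative to their spread. TOP2A fell 1.78-fold (log2 fold change -0.83, SE 0.11, adjusted p = 2.72e-05 in edgeR's quasi-likelihood test). MKI67, whose product Ki-67 coats mitotic chromosomes, was at 41.5, 26.4 and 31.5 CPM in siCON and 21.02, 36.6 and 19.6 CPM in siDGk replicates 1, 2 and 3. Here siDGk replicates 1 and 3 lay below all siCON libraries and siDGk replicate 2 lay within them. The log2 fold change of MKI67 was -0.37 (SE 0.23) and the gene was not called with all libraries.

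Of the spindle assembly checkpoint, BUB1 was called lower. BUB1 encodes a kinase that recruits other checkpoint proteins to kinetochores (ENSG00000169679.14, chromosome 2, 110637528 to 110678063), and was at 22.4, 22.4 and 21.9 CPM in siCON and 14.6, 16.3 and 13.5 CPM in siDGk replicates 1, 2 and 3. Between them no overlap was seen. The log2 fold change was -0.59 (SE 0.20, adjusted p = 0.0417 in edgeR's quasi-likelihood test), and the call was lost in each of the 6 fits without 1 library, in DESeq2, with library totals only, without the count filter and with the replicate block, while the log2 fold change stayed between -0.66 and -0.54 in those 6 fits and the adjusted p of edgeR and DESeq2 between 0.0384 and 0.103 over all alternatives. BUB3, its binding partner at kinetochores, was at 73.8, 74.1 and 74.8 CPM in siCON and 93.4, 92.3 and 81.2 CPM in siDGk replicates 1, 2 and 3, all siDGk libraries above all siCON libraries. Its log2 fold change of 0.26 (SE 0.11) was not called (adjusted p = 0.0985 in edgeR's quasi-likelihood test). MAD2L1, the checkpoint protein that captures CDC20, was at 23.7, 21.6 and 29.5 CPM in siCON and 39.1, 27.8 and 33.3 CPM in siDGk replicates 1, 2 and 3, with overlap only between siCON replicate 3 and siDGk replicate 2. Its log2 fold change was 0.43 (SE 0.18, adjusted p = 0.116 in edgeR's quasi-likelihood test). The checkpoint kinases BUB1B and TTK had log2 fold changes of -0.23 and -0.13 and overlapping groups. Without 1 library BUB1B ran from -0.36 to -0.14 and MAD2L1 from 0.28 to 0.56.

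Central spindle and cytokinesis genes were all on the negative side, with a median log2 fold change of -0.46 over 5 members, and PRC1 was called lower. PRC1 bundles the antiparallel microtubules of the central spindle (ENSG00000198901.13, chromosome 15, 90966040 to 90995629), and was at 37.5, 29.9 and 25.4 CPM in siCON and 23.2, 21.6 and 18.3 CPM in siDGk replicates 1, 2 and 3. Again no overlap was seen, with siCON replicate 3 close to siDGk replicate 1. Its log2 fold change was -0.56 (SE 0.19, adjusted p = 0.0445 in edgeR's quasi-likelihood test), and the call was kept without siCON replicate 3 but lost without any other library, in DESeq2 and with library totals only, the log2 fold change lying between -0.68 and -0.40 in the fits without 1 library and the adjusted p of edgeR and DESeq2 between 0.0342 and 0.236 over all alternatives. In Gencode 44, 61.9% of the exon bases of PRC1 are shared with other genes, among them the antisense gene PRC1-AS1, so its count is uncertain. Overlap in the earlier Gencode release that the paper names was not checked. KIF20A, the kinesin that carries PLK1 and the passenger complex to the midzone, had a log2 fold change of -0.60 (SE 0.29) that was not called, with levels of 13.8, 12.4 and 14.8 CPM in siCON and 5.51, 10.96 and 10.5 CPM in siDGk replicates 1, 2 and 3. KIF23, ANLN and ECT2, which act at the midzone and the contractile ring, had log2 fold changes of -0.46, -0.22 and -0.17. Without 1 library the values ran from -0.76 to -0.36 for KIF20A, from -0.71 to -0.16 for KIF23, from -0.31 to -0.13 for ANLN and from -0.27 to -0.11 for ECT2.

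The chromosomal passenger complex consists of AURKB, INCENP, BIRC5 and CDCA8, and corrects faulty attachments before it moves to the midzone. All 4 log2 fold changes were negative, between -0.50 and -0.22 with a median of -0.45, but edgeR's test called 0, also at an unadjusted p under 0.05, and DESeq2 called 0. BIRC5, which encodes survivin, was at 29.3, 34.0 and 31.9 CPM in siCON and 26.0, 31.1 and 12.1 CPM in siDGk replicates 1, 2 and 3. CDCA8, which encodes borealin, was at 11.2, 21.6 and 16.3 CPM in siCON and 6.70, 17.7 and 10.4 CPM in siDGk replicates 1, 2 and 3. In both genes siDGk replicate 2 lay within the siCON range, as it did for AURKB, at 13.7, 12.7 and 12.3 CPM in siCON and 11.7, 12.7 and 8.93 CPM in siDGk. The groups of all 4 genes overlapped. Without siDGk replicate 2 their log2 fold changes were -0.32 for AURKB, -0.65 for INCENP, -0.74 for BIRC5 and -0.93 for CDCA8, with a median of -0.70, and BIRC5 and CDCA8 had adjusted p of 0.0550 and 0.0520 in edgeR's quasi-likelihood test (from 0.0550 to 0.646 and from 0.0520 to 0.737 over all alternatives). Over all fits without 1 library the values ran from -0.32 to -0.0883 for AURKB, from -0.65 to -0.20 for INCENP, from -0.74 to -0.16 for BIRC5 and from -0.93 to -0.24 for CDCA8.

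Kinesins and spindle microtubule genes had a median log2 fold change of -0.41 and 0 of 5 called, also in DESeq2, with 2 at an unadjusted p under 0.05. These were KIF11, the motor that pushes spindle poles apart, at -0.50 (SE 0.21), and KIF2C, which depolymerises microtubules at kinetochores, at -0.47 (SE 0.21), both with all siDGk libraries below all siCON libraries. NUSAP1 was at -0.41 and TPX2, the activator of Aurora A on the spindle, at -0.27, while KIF4A, a chromosome-bound kinesin, was at 0.18, and the groups of all 3 overlapped. Without 1 library NUSAP1 ran from -0.64 to -0.10 and TPX2 from -0.45 to -0.16, TPX2 reaching an adjusted p of 0.0356 in edgeR's quasi-likelihood test without siDGk replicate 3, at a log2 fold change short of the 0.5 required. In Gencode 44, 86.8% of the exon bases of NUSAP1 are shared with other genes, among them OIP5-AS1 and OIP5, and 13.5% of the 50-base stretches of KIF4A occur in transcripts of other genes, KIF4B foremost, so both counts are uncertain. For no member did that share of stretches exceed 20%. Here too, overlap in the earlier release named in the paper was not checked.

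At centromeres and kinetochores 0 of 6 members were called, also in DESeq2, with 1 at an unadjusted p under 0.05, and the median log2 fold change was -0.18. CENPF, a large protein of the outer kinetochore, was at 44.01, 31.3 and 36.2 CPM in siCON and 24.0, 29.7 and 26.7 CPM in siDGk replicates 1, 2 and 3. Its groups did not overlap, and its log2 fold change of -0.47 (SE 0.17) had an adjusted p of 0.0613 in edgeR's quasi-likelihood test, which passed, at 0.0347, only in the fit without siCON replicate 2 (from 0.0347 to 0.287 over all alternatives). CENPA, the histone H3 variant of centromeres, was at 5.23, 5.59 and 13.7 CPM in siCON and 6.38, 5.54 and 12.3 CPM in siDGk replicates 1, 2 and 3, so that 1 library of each group was high, and its log2 fold change was 0.0035 (95% interval from -0.85 to 0.85). NUF2 and CENPE were at 0.01 and -0.05, and NDC80 and SPC25, which with NUF2 belong to the complex that grips microtubules, at -0.36 and -0.31 with intervals that included 0. Without 1 library NDC80 ran from -0.72 to -0.14 and SPC25 from -0.49 to -0.0760.

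Of the 4 genes that trigger anaphase, edgeR's test called 0, also at an unadjusted p under 0.05, and DESeq2 called 0. UBE2C, the ubiquitin-conjugating enzyme of the anaphase-promoting complex, was at 14.0, 16.6 and 15.5 CPM in siCON and 6.70, 16.6 and 10.0 CPM in siDGk replicates 1, 2 and 3. CDC20, which activates that complex, was at 28.4, 31.2 and 29.6 CPM in siCON and 21.8, 35.1 and 22.0 CPM in siDGk replicates 1, 2 and 3. In both genes siDGk replicates 1 and 3 lay below all siCON libraries and siDGk replicate 2 did not. The log2 fold changes were -0.47 for UBE2C and -0.18 for CDC20, or -0.87 and -0.44 without siDGk replicate 2, and over all fits without 1 library they ran up to -0.23 and -0.0774. PTTG1, which encodes securin, and ESPL1, which encodes the separase that securin inhibits, were at -0.06 and 0.09.

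The pattern across libraries set siDGk replicate 2 and siDGk replicate 3 at opposite ends of the siDGk group. Against the mean of the siCON libraries, the median deviation of the members was -0.29, -0.06 and -0.46 on the log2 scale in siDGk replicates 1, 2 and 3, and 0.01, -0.02 and 0.01 in siCON replicates 1, 2 and 3. Replicate 2 was the highest of the siDGk libraries for 21 of the 41 members, and replicate 3 was the lowest of the siDGk libraries for 20 of the 41 and the lowest of all 6 libraries for 19. Such ranks were not counted over all genes. DNA replication and G1/S genes had the same order, with median deviations of -0.03, 0.04 and -0.16 in siDGk replicates 1, 2 and 3. AURKA and PLK1 did not follow this order, since siDGk replicate 2 was the lowest siDGk library for AURKA and lay beside replicate 3 for PLK1. Without siDGk replicate 2, edgeR's quasi-likelihood test called 5 members lower (5.89% of the 15121 genes then tested were) and 1 higher (6.16% were). AURKA, TOP2A, PLK1 and CKS2 were called in both fits. BUB1 and PRC1 were not called without that library, at log2 fold changes of -0.66 and -0.58 and adjusted p of 0.0529 and 0.0787 in edgeR's test, as they were not without most other single libraries, and MKI67 and UBE2C were called only without it, at log2 fold changes of -0.71 and -0.87, while leaving out another library brought them as near to 0 as -0.17 and -0.23. The median of the members was then -0.35, and 35 of 41 were negative. By role, the median without it was -0.27 for the cyclin-CDK1 switch, -0.25 for the checkpoint and -0.26 for the anaphase trigger, against -0.13, -0.13 and -0.12 with all libraries. Medians of these roles were not computed without another library. Of the 5 members called lower with all libraries, 3 were thus shared. Without siDGk replicate 3 instead, 3 members were called lower, the median was -0.22 and 33 of 41 were negative.

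**Figure D4:**
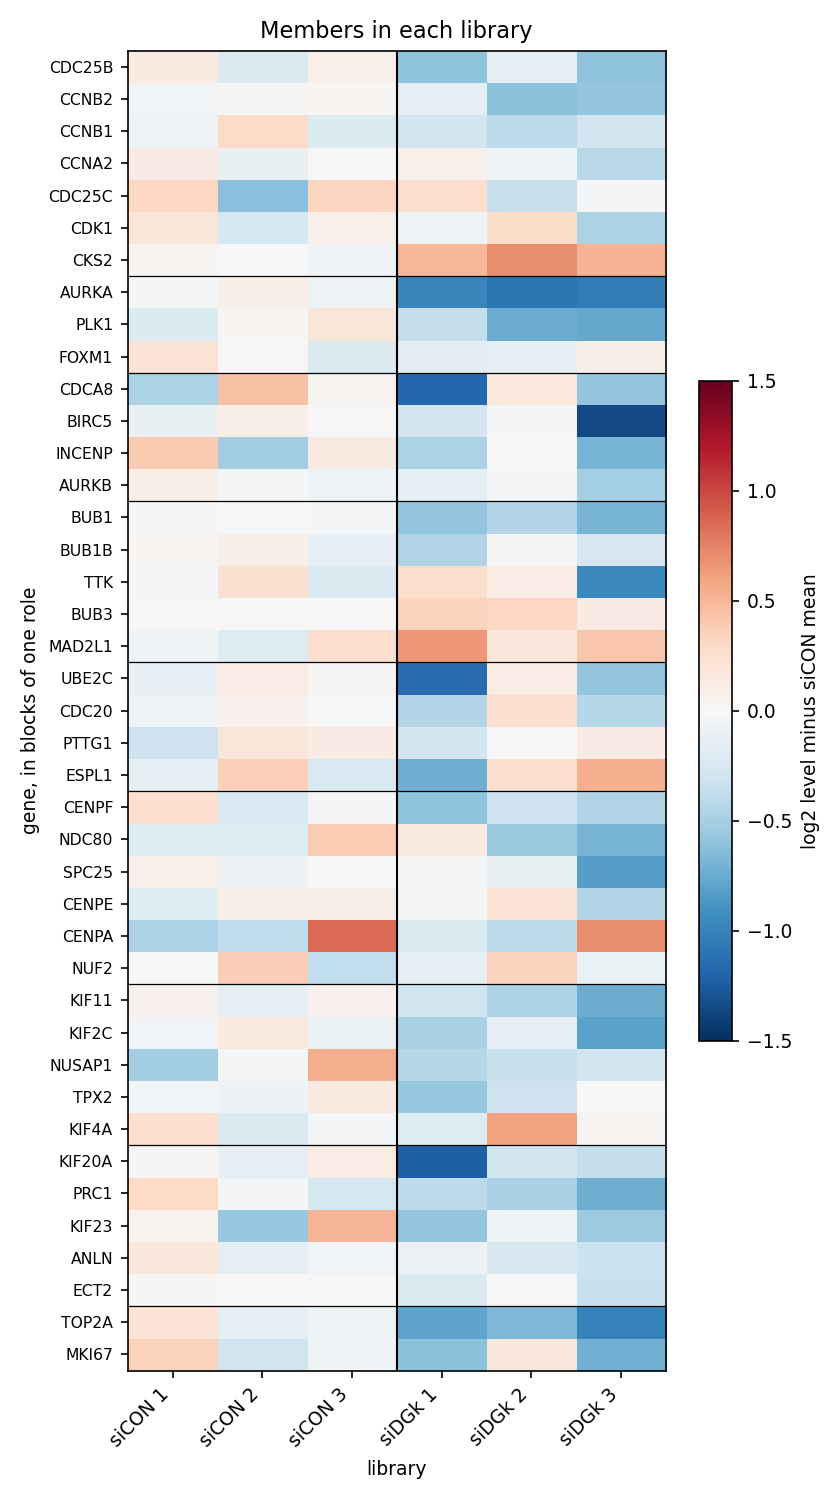
Level of each of the 41 members (rows, in blocks by role) in each of the 6 libraries (columns), as the difference in log2 CPM from the mean of the siCON libraries, blue below and red above it. The rows of AURKA and TOP2A are blue in all siDGk libraries, and the column of siDGk replicate 2 is paler than those of siDGk replicates 1 and 3, with medians of -0.06, -0.29 and -0.46.

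Partners within a complex or family were compared in 4 pairs, chosen after their values were seen, as the difference of log2 levels within each library. AURKA relative to AURKB was at 1.66, 1.86 and 1.75 in siCON and 0.91, 0.67 and 1.21 in siDGk replicates 1, 2 and 3, a difference of -0.83 between the group means. BUB1 relative to BUB3 was at -1.70, -1.70 and -1.75 in siCON and -2.63, -2.47 and -2.54 in siDGk replicates 1, 2 and 3, a difference of -0.83. CKS2 relative to CKS1B, the other human CKS gene, differed by 0.52. In these 3 pairs the groups did not overlap, while CCNB1 relative to CDK1 differed by -0.23 with overlapping groups. For BUB1 and BUB3 this followed from their own levels, since every siDGk library was below every siCON library for BUB1 and above for BUB3. No test is given for these pairs because of how they were chosen.

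The other genes of mitosis had a median nearer to 0 than the members, on the same side. Of 95, all tested, 9 were called lower (9.47%, against 6.68% of all genes tested) and 1 higher (1.05%, against 7.42%) in edgeR's quasi-likelihood test. Negative values numbered 66 (69.5%, against 48.5% of all genes tested), and the median log2 fold change was -0.18. The 3 with the lowest values were DEPDC1B at -1.12 (SE 0.27), NEK2, a centrosome kinase, at -1.05 (SE 0.30) and KIF15, a spindle kinesin, at -1.02 (SE 0.30). NCAPH and NCAPD2, subunits of condensin I, which compacts mitotic chromosomes, fell by 1.00 and 0.62 on the log2 scale, and MIS18A and KNL1, which act at centromeres and kinetochores, fell by 0.78 and 0.70. KIF22, a chromosome-arm kinesin, was at 43.3, 43.0 and 40.0 CPM in siCON and 29.1, 18.4 and 30.4 CPM in siDGk replicates 1, 2 and 3. Every call but that of DEPDC1B was lost without at least 1 library, and the number called lower was 5 without siCON replicate 2 and 4 without siCON replicate 3. Spindle genes of this list had a median of -0.43 over 18 genes and kinetochore genes one of 0.0035 over 25. Subunits and partners of the anaphase-promoting complex had a median of -0.06 over 17, among them UBE2S, called higher at 0.5002, just past the threshold, and not called in DESeq2.

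DNA replication and G1/S genes, the programme of the preceding phase, were nearer to the median of all genes. Of 51, all tested, 3 were called lower (5.88%, against 6.68% of all genes tested) and 1 higher (1.96%, against 7.42%) in edgeR's quasi-likelihood test. The median log2 fold change of the 51 was -0.04. LIG1, which joins Okazaki fragments, fell by 0.84 on the log2 scale (SE 0.17), CHAF1A, a histone chaperone subunit, by 0.85 (SE 0.25) and CDC25A, the phosphatase that activates CDK2, by 0.80 (SE 0.25). Of these, LIG1 kept its call without any 1 library, and without siCON replicate 3 only it was called lower, so that the count was 1. CCND1, which encodes cyclin D1, rose from 287, 259 and 306 CPM in siCON to 503, 471 and 505 CPM in siDGk replicates 1, 2 and 3, with no overlap (log2 fold change 0.79, SE 0.08, adjusted p = 8.34e-07 in edgeR's quasi-likelihood test). Summed over the list, the level was 1784, 1742 and 1815 CPM in siCON and 1900, 1977 and 1908 CPM in siDGk replicates 1, 2 and 3, all siDGk libraries above all siCON libraries. This direction rested on CCND1, since without it the sum was 1497, 1483 and 1509 CPM in siCON and 1397, 1506 and 1403 CPM in siDGk replicates 1, 2 and 3, and 2 of the 3 siDGk libraries lay below all siCON libraries.

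**Figure D5:**
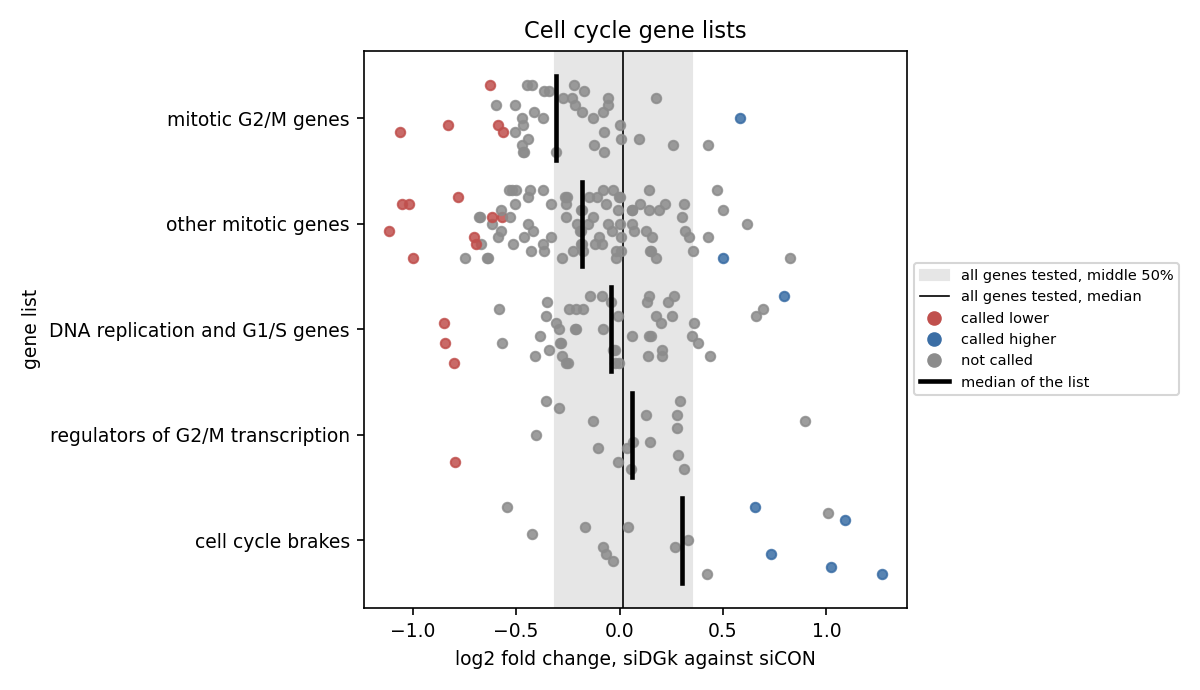
Log2 fold change, siDGk against siCON (x axis), of every tested gene of 5 cell cycle lists (rows), coloured by call, with the median of each list as a thick bar, and the median (thin line) and middle 50% (grey band) of all 14476 genes tested. The medians run from -0.31 for mitotic G2/M genes over -0.18, -0.04 and 0.06 to 0.30 for cell cycle brakes.

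Regulators of G2/M transcription, such as components of DREAM and MuvB, E2F and NF-Y factors, had a median log2 fold change of 0.06 over 18 genes. Without 1 library this median ran from -0.0311 to 0.16. TFDP2, a dimerisation partner of E2F factors, was called lower at -0.80 (SE 0.22), at 33.9, 23.7 and 32.6 CPM in siCON and 20.3, 19.2 and 12.4 CPM in siDGk replicates 1, 2 and 3, a call that did not survive leaving out replicate 1 or 3 of siCON or replicate 3 of siDGk. None was called higher in edgeR's quasi-likelihood test, with 1 positive at an unadjusted p under 0.05, or in DESeq2. Of 18 cell cycle brakes 16 were tested. Of these, 5 were called higher (31.2%, against 7.42% of all genes tested) and 0 lower (against 6.68%). At an unadjusted p under 0.05 there was 1 negative, and DESeq2 called 0 lower. The median log2 fold change of the brakes was 0.30, or from 0.13 to 0.40 without 1 library and 0.0857 with shrunken fold changes. SFN, which encodes 14-3-3 sigma, a protein that retains cyclin B1 and CDK1 in the cytoplasm, was at 13.1, 15.8 and 12.4 CPM in siCON and 33.9, 31.8 and 34.3 CPM in siDGk replicates 1, 2 and 3. It rose 2.41-fold (log2 fold change 1.27, SE 0.18, adjusted p = 5.68e-05 in edgeR's quasi-likelihood test). GADD45A and GADD45B, whose products bind CDK1, rose by 0.65 and 0.73 on the log2 scale, and CDKN2A and CDKN2B, which encode inhibitors of CDK4 and CDK6, rose by 1.09 and 1.02. For these 5 genes every siDGk library lay above every siCON library.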

How the data were processed

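Groups and replicate numbers came from the sample titles. The authors deposited raw counts per gene, made by removing reads of tRNA, rRNA, adapters and spike-ins, aligning to GRCh38 with STAR 2.6.1, dropping low-complexity reads and counting with featureCounts 1.6.5 at default parameters plus a minimum quality. These defaults ignore strand and skip multi-mapped reads and those assigned to more than 1 gene. The submitters' processing notes also name Bowtie 1.1.2. Library kit and read length are not given in the sources used here.

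Counts were analysed in R 4.3.3 with edgeR 4.0.16: filterByExpr (minimum count 10), TMM, a robust quasi-likelihood model with the siRNA as its single term, and Benjamini-Hochberg adjustment over all genes tested. The SE was obtained as the size of the log2 fold change over the root of F, and 95% intervals used the t distribution with the total degrees of freedom of the fit. TPM used union exon lengths of Gencode 44 (98.9% of genes with a count had one), whereas the paper names an earlier Gencode release for its annotation. No library was a copy of another, since the chi-square of replicate pairs, relative to its degrees of freedom, ran from 10.7 to 25.7. Differences of log2 levels used a prior of 0.5 CPM.

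The members and lists were chosen with earlier results of these data known. All members could be named, and of the other lists the called genes, up to 8 a list by size of change. CKS1B and UBE2S were chosen after their values were seen. MS4A1 was not analysed here. Alternatives were DESeq2 1.42.0 with and without shrinkage by apeglm 1.24.0, RLE, upper quartile, library totals only, no count filter, adjusted p alone, replicate number as a block, and each library left out in turn. The fits were tested on simulated data.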

Additional observations from a re-analysis of the deposited data

How the results depend on the processing

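AURKA and TOP2A were called lower and CKS2 higher with all libraries, without each of the 6 libraries in turn and under every other alternative run (log2 fold change from -1.11 to -1.02 for AURKA, from -0.91 to -0.72 for TOP2A and from 0.51 to 0.60 for CKS2 without 1 library). The number of members called lower was 3 in DESeq2, with shrunken fold changes and with library totals only, where BUB1 and PRC1 lost their calls, and 3 to 5 without 1 library. The cause was not tested. The median over all genes was 0.13 in DESeq2 and 0.14 without the count filter, against 0.02. Other mitotic genes called higher numbered 0 in DESeq2, with shrunken fold changes and with RLE, and 0 to 1 without 1 library, and those called lower 4 to 7 without 1 library. Without the count filter 4 members were called lower, BUB1 not among them. Shrunken fold changes gave medians of -0.19 for the members, -0.11 for other mitotic genes, 0.0236 for regulators and 0.0857 for brakes, and library totals only gave 0.0913 for regulators. With RLE 1 brake was called lower. Without 1 library, G1/S genes called lower numbered 1 to 2 and their median was -0.16 to -0.0094, regulators called lower numbered 0 to 1 with medians from -0.0311 to 0.16, and brakes called lower numbered 0 to 1 with medians from 0.13 to 0.40. Members close to 0 changed sign: CENPA was at -0.0130 in DESeq2, at -0.00402 with shrinkage and at -0.00396 with RLE, and without 1 library CENPA ran from -0.45 to 0.58, CDK1 from -0.27 to 0.0912, CDC25C from -0.35 to 0.0856, FOXM1 from -0.18 to 0.0442, NUF2 from -0.16 to 0.22, TTK from -0.39 to 0.17, PTTG1 from -0.20 to 0.0447, ESPL1 from -0.22 to 0.38, KIF4A from -0.0920 to 0.32 and CENPE from -0.20 to 0.10. The replicate numbers did not pair the samples (correlation across genes of same-numbered libraries after removal of group means 0.0263, 0.0231 and -0.00103), and with the replicate block 4 members were called lower, BUB1 not among them, with a median of -0.33. Of the 41 members, 12 stayed within 1.5 times their log2 fold change without any 1 library, the 6 called ones among them, 19 moved further and 10 changed sign. How depth bears on the SE of members of low count, such as SPC25 with a lowest count of 53, was not tested.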
